A study of Rattus norvegicus with 12 samples.

Results

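The lactation effect in an injured pelvic floor muscle was compared between 1 and 3 weeks, gene by gene, as the change of that effect with time. For each gene the log2 ratio of lactating to non-lactating rats was taken at 1 week and at 3 weeks, and the first was subtracted from the second, so that a negative difference means that the gene was relatively lower with lactation at 3 weeks than at 1 week. Of 30206 genes listed, 14599 passed a filter on low counts and were compared, with no other choice made on their values. RNA came from the pubocaudalis, a skeletal muscle of the pelvic floor, of female Sprague-Dawley rats, 3 months old, that underwent simulated birth injury (SBI) late in pregnancy by inflation of a vaginal balloon. After delivery the rats were randomized to removal of the pups or to lactation, which gave a non-lactating and a lactating group at each time: 1wk SBI with 1wk SBI + Lac, and 3wk SBI with 3wk SBI + Lac. Lactation lasted 3 weeks, until the pups were weaned, so the later time point lies at the end of lactation. Time since injury and stage of lactation therefore cannot be told apart. Every group carried the injury, and no uninjured muscle was analysed here. Each group held 3 libraries and each library the pooled RNA of 2 rats, so n = 3 pools throughout.

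Lactation is in general a state of high prolactin and oxytocin and of a large export of fat and glucose into milk. The study reports serum prolactin as higher with lactation at its start, before the times analysed here. Serum prolactin was lower with lactation at the earlier time point and did not differ at the later time point. Fasting or glucocorticoid hormone shifts skeletal muscle from glucose to fatty acid as fuel. For corticosterone, the main glucocorticoid of rats, the study reports no serum difference between the groups shortly after pup removal. It places the differences mainly after weaning. Injured muscle passes through infiltration by neutrophils and macrophages, proliferation of satellite cells (the stem cells of muscle), fusion of their progeny into new fibers that carry embryonic myosin, and remodeling of the matrix. The comparison asks which genes kept, lost, gained or reversed their lactation effect between the time points.

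Total counts ran from 10082734 to 75634391 per library, and both extremes of the 3-week libraries lie outside the range of the 1-week ones. The deposited 1-week values are whole counts, whereas between 26.6% and 44% of each 3-week library's values have decimals, so the deposited values of the time points differ in kind. A lactation effect is taken within a time point and the difference compares 2 such effects, but levels at 1 and 3 weeks cannot be set against each other without that limit. Whether the mismatch also changes the difference of effects was not tested. There were 30 genes with a value of 0 at 1 week and at least 100 counts over the 3-week libraries, and 0 genes the other way. Of these 30 genes, 3 passed the filter on low counts. The defining transcripts of skeletal muscle were high in all libraries: Ckm, muscle creatine kinase, reached 10400 to 31500 CPM (counts scaled to the total of the library) and Acta1, skeletal actin, 23400 to 67500 CPM. The library 3wk SBI replicate 3 stood apart, with a T cell gene score (the mean over the list's genes of log2 CPM, each centred on its mean over libraries) of 1.58 against −0.34 and 0.02 in the other 2 libraries of its group. Pairs of pools in a group were further apart than sampling of reads allows (chi-square of 20.8 to 95.3 for each degree of freedom), and p-values measure only the spread between pools. The study calls the pools technical replicates, whereas the labels assign different rats to each pool. They were treated here as separate samples.

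At the single-gene level, 1 gene passed the test of the difference (edgeR's quasi-likelihood test over all 12 libraries, Benjamini-Hochberg adjusted p under 0.05 and absolute log2 difference over 1), which is 0.00685% of the genes tested. At an unadjusted p under 0.05 there were 645 genes (4.42%), of which 244 had a positive and 401 a negative difference. DESeq2 passed 11 genes at the same limits. The median standard error of the difference was 0.257 on the log2 scale and the 95% interval reached a median of 0.548 to either side, and for 63.2% of genes the interval lay wholly between −1 and 1. Across genes the 1-week and 3-week effects, which share no library, had a Pearson r of 0.499 and a Spearman rho of 0.561. Among the 7832 genes with at least 10 CPM in a group r was 0.711. Genes are not independent replicates, and r over all genes fell to 0.154 without 3wk SBI replicate 3. By the criteria used, which require a called difference for a change of effect, 0 genes lost or gained the lactation effect (DESeq2: 4 and 5), 1 gene reversed it and 15 kept it.

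**Figure D1:**
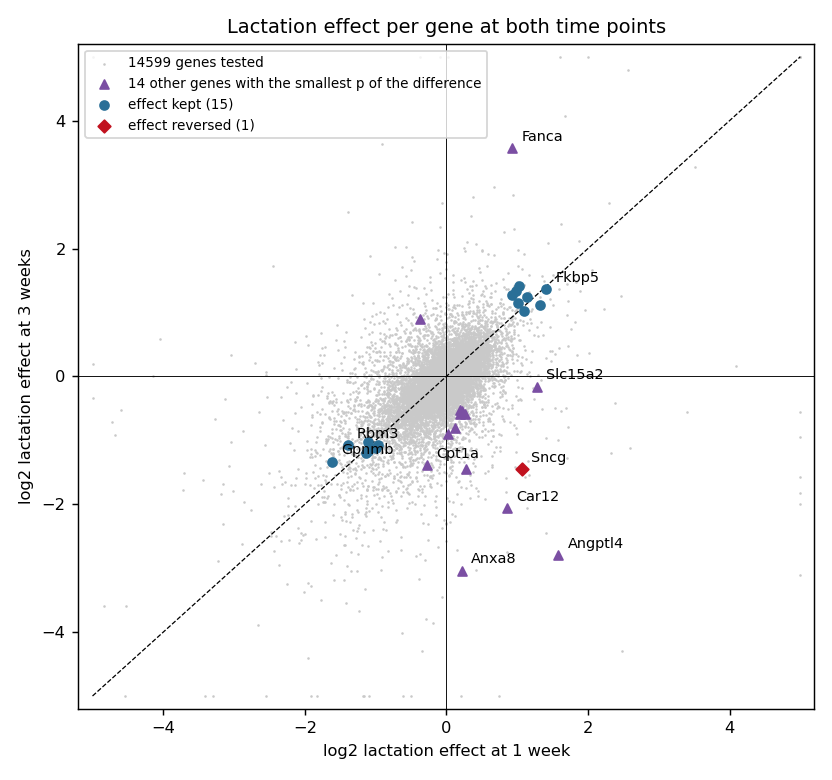
Each grey point is 1 of the 14599 genes tested, with the log2 ratio of lactating to non-lactating libraries at 1 week on the horizontal axis and at 3 weeks on the vertical axis, and values beyond 5 drawn at the edge. The dashed line marks equal effects: the 15 kept genes (circles) lie along it, while Sncg (diamond) lies at 1.06 and −1.45 and most of the 14 other genes with the smallest p (triangles) lie below it.

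Sncg encodes gamma-synuclein, a small cytoplasmic protein best known from peripheral neurons and fat cells. Its normalized levels were 7.37, 5.48 and 5.67 CPM in 1wk SBI and 11.3, 11.3 and 16 CPM in 1wk SBI + Lac. At 3 weeks they were 26.8, 25.9 and 23.5 CPM in 3wk SBI and 10.1, 10.1 and 6.92 CPM in 3wk SBI + Lac. Every lactating library thus lay above every non-lactating one at 1 week and below every one at 3 weeks. The log2 effect was 1.06 ± 0.17 (SE, adjusted p = 0.0222) at 1 week and −1.45 ± 0.18 (adjusted p = 0.00177) at 3 weeks by edgeR's quasi-likelihood test. The difference was −2.51 ± 0.25, with a 95% interval from −3.04 to −1.98 and an adjusted p of 0.000618. It passed in each of the 12 fits that left out 1 library, with a difference from −2.66 to −2.32, and in each of the 10 other fits tried. The group means were 6.17 ± 1.04, 12.9 ± 2.72, 25.4 ± 1.75 and 9.05 ± 1.84 CPM (SD, n = 3) in the order given.

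Because Sncg is expressed in fat cells and nerve, the markers of these cells were set beside it. Of 21 adipocyte genes 17 were tested, and their median effect was 0.06 at 1 week and 0.08 at 3 weeks. The summed adipocyte level was 10700 to 12800 CPM in 1wk SBI, 14200 to 15600 CPM in 1wk SBI + Lac, 9190 to 12800 CPM in 3wk SBI and 12300 to 15200 CPM in 3wk SBI + Lac. These sums did not overlap at 1 week, with the lactating group higher, and overlapped at 3 weeks, and the list holds Sncg itself. A sum is carried by the most abundant genes of the list, whereas the list score weighs each gene alike. That score stood at −0.216, −0.125 and 0.0186 in 1wk SBI and at −0.374, 0.347 and −0.306 in 1wk SBI + Lac, which overlap. The scores of the 3-week groups also overlapped. Adipoq, the fat cell hormone adiponectin, ranged from 0.812 to 7.71 CPM over all libraries with effects of −0.79 and −0.08, and Plin1, the coat protein of fat droplets, from 0 to 1.89 CPM, both chosen after their values were seen. These levels lie far below the sums, which are therefore carried by other genes of the list and need not follow the amount of fat cells. Of the 17 differences 9 were positive and 8 negative, and 4 had an unadjusted p under 0.05. Sncg and Lipe, hormone-sensitive lipase (0.45, then −0.29), were the negative ones, and Cidec, a lipid droplet protein (−0.96, then 1.61), and Thrsp, a regulator of fat synthesis (−0.85, then 0.64), the positive ones. The summed level of 19 Schwann cell and nerve genes was 116 to 162, 111 to 167, 82.6 to 287 and 131 to 276 CPM in the same order of groups, ranges that overlap at each time point. The part of either cell type in the Sncg result was not tested. In bulk tissue, fewer cells of a type and less RNA per cell cannot be told apart.

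The 250 bases upstream of the annotated start of Sncg in RefSeq (build GRCr8, chr16:9711337-9711586, minus strand) are shown because it was the only gene whose effect reversed by the criteria used. They hold no match on either strand to AGAACA (a core motif of the glucocorticoid receptor), AGGTCA (a core motif of other nuclear receptors), CACGTG (an E-box) or TTATGTAA (a D-box), which occur in 17.5%, 14.1%, 5.59% and 0.828% of the same stretch of 33469 rat promoters.
Sncg: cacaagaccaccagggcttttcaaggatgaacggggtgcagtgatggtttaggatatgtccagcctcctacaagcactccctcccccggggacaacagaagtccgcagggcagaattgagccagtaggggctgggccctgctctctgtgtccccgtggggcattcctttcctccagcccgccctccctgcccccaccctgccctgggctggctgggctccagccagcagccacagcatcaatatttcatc

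Besides Sncg, 14 genes had the smallest p of the difference among genes with a symbol and at least 1 CPM in a group, and 12 of them had a negative difference. Of these 14, 0 passed the adjusted threshold in edgeR, where DESeq2 passed 7 of them: Angptl4 as reversed, Slc15a2 as lost, and Cpt1a, Mgmt, Fanca, Car12 and Anxa8 as gained. They are given with their values. Their ranking rests on p alone, so the sizes named here are those of the most extreme of many genes.

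Of these 14 genes, the smallest p was that of Angptl4. Angptl4, a secreted inhibitor of lipoprotein lipase that muscle makes when fatty acids are plentiful, stood at 0.785, 1.03 and 1.69 CPM in 1wk SBI and 3.34, 5.26 and 1.86 CPM in 1wk SBI + Lac. At 3 weeks it stood at 1.61, 2.60 and 2.83 CPM in 3wk SBI and 0.391, 0.211 and 0.660 CPM in 3wk SBI + Lac. All lactating libraries were above the others at 1 week and below them at 3 weeks, as for Sncg, at levels of a few CPM. The effect went from 1.58 ± 0.41 to −2.80 ± 0.51, a difference of −4.38 ± 0.65, and edgeR put its adjusted p at 0.0524. Leaving out 1wk SBI replicate 3 or 1wk SBI + Lac replicate 3 lowered this to 0.0214 and 0.0212, while leaving out 3wk SBI + Lac replicate 2 raised it to 0.270, and DESeq2 gave 9.47e-07. Cpt1a, an enzyme of fatty acid entry into mitochondria, stood at 9.04, 10.2 and 10.8 CPM in 1wk SBI and 8.10, 8.51 and 8.17 CPM in 1wk SBI + Lac. It stood at 11.2, 13.6 and 14.5 CPM in 3wk SBI and 4.79, 4.24 and 6.82 CPM in 3wk SBI + Lac. Its lactating libraries were lower at both times without overlap, but the effect was −0.28 ± 0.16 at 1 week and −1.39 ± 0.17 at 3 weeks (difference −1.11 ± 0.23, adjusted p = 0.502).

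Several genes of transport and cell structure had an effect at 1 time point. Slc15a2, a peptide transporter, stood at 1.99, 1.74 and 2.41 CPM in 1wk SBI and 3.80, 5.39 and 5.69 CPM in 1wk SBI + Lac, then at 4.93, 4.40 and 3.46 CPM and at 3.48, 3.89 and 3.85 CPM in the 3-week groups. It was higher with lactation at 1 week without overlap (1.28 ± 0.22, adjusted p = 0.0235), and the 3-week groups overlapped (−0.16 ± 0.23). Anxa8, a calcium-dependent membrane-binding annexin, stood between 0.336 and 0.459 CPM in all 1-week libraries. At 3 weeks it stood at 11.2, 4.95 and 4.84 CPM without and at 1.11, 0.781 and 0.440 CPM with lactation, an effect of −3.04 ± 0.38 (adjusted p = 0.00193) against 0.22 ± 0.43 at 1 week. Tppp3, a tubulin-binding protein, stood between 34.2 and 43.6 CPM in all 1-week libraries, at 61.8 to 85.7 CPM in 3wk SBI and at 33.9 to 39.8 CPM in 3wk SBI + Lac. For both genes the 1-week groups overlapped and the 3-week groups did not.

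The other members were a mixed set. Fanca, a DNA repair protein, had the largest positive difference of the 15 (2.64 ± 0.57): it stood at 0.726 to 1.01 CPM in 1wk SBI, 1.22 to 2.00 CPM in 1wk SBI + Lac, 0 to 0.619 CPM in 3wk SBI and 4.84 to 5.40 CPM in 3wk SBI + Lac. Lactating libraries were higher at both times without overlap, by 0.93 ± 0.37 and 3.58 ± 0.44 on the log2 scale. Atf3, a transcription factor of the stress response, had the only other positive difference (1.28 ± 0.31), with effects of −0.38 and 0.90. Mgmt, which repairs alkylated DNA, had effects of 0.28 and −1.44, and Car12, a carbonic anhydrase, 0.86 and −2.06. The remaining members were Limch1, an actin-binding protein (0.19, then −0.52), Tbx3, a developmental transcription factor (0.27, then −0.59), Dusp29, a phosphatase (0.12, then −0.81), Ltbp4, a binding protein of latent TGF-beta (0.22, then −0.54), and Itga4, the integrin alpha 4 subunit (0.19, then −0.59). For 1 further gene, which has no symbol (ENSRNOG00000062617) and is named after its values were seen, the adjusted p was also 0.0524. It stood at 8.67, 6.22 and 13.7 CPM in 1wk SBI and 37.3, 45.5 and 43.3 CPM in 1wk SBI + Lac, and between 12.6 and 17.0 CPM in all 3-week libraries. Its effect was 2.15 ± 0.21 at 1 week (adjusted p = 0.000879) and 0.10 ± 0.22 at 3 weeks, and DESeq2, the voom fit, the replicate block, the filter of 1 count in each group and thinning to equal depth each passed its difference.

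**Figure D2:**
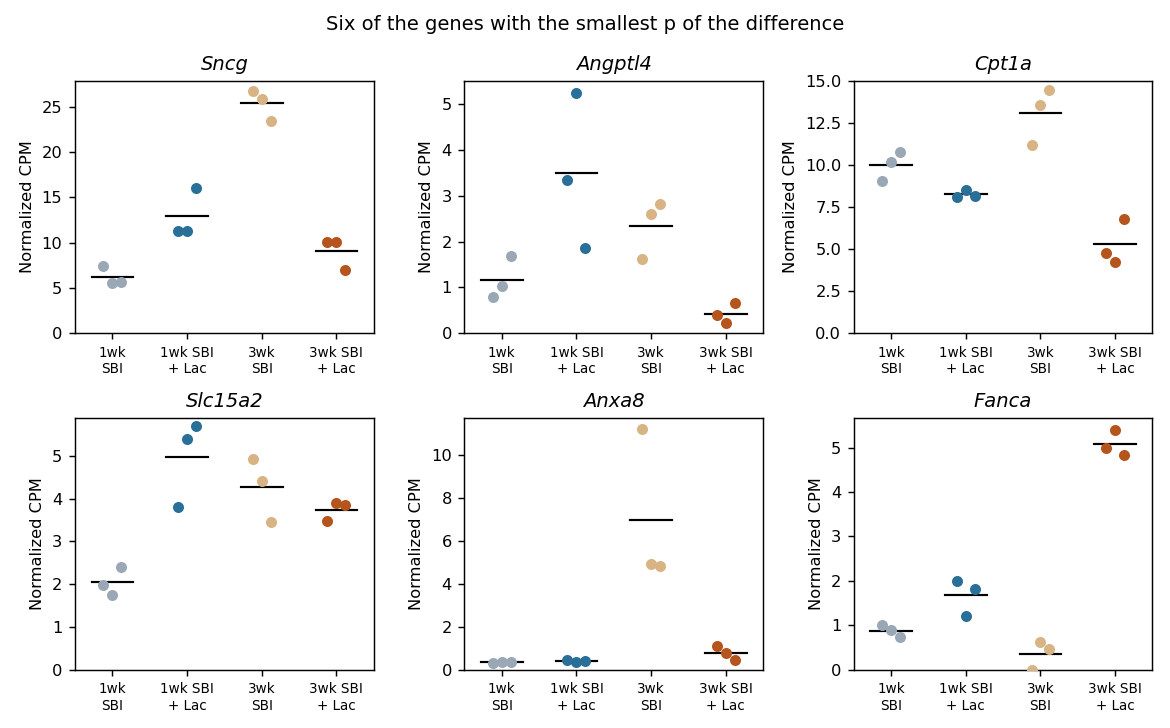
Normalized CPM in each library (points) and the mean of 3 pools (horizontal lines) for 6 of the 15 genes with the smallest p of the difference, on linear axes from 0. Sncg and Angptl4 are higher with lactation at 1 week and lower at 3 weeks, Slc15a2 is higher at 1 week only without overlap, and Anxa8, Cpt1a and Fanca separate most at 3 weeks.

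Of the 37 genes called at 1 week, 13 (0.089% of genes) were higher and 24 (0.164%) lower with lactation. At 3 weeks, 11 of the 13 and 24 of the 24 had the same sign, where 71.7% of all genes did. The same direction with an unadjusted p under 0.05 at 3 weeks was found for 10 of the 13 and 17 of the 24 (18.9% of all genes). Of the 108 genes called at 3 weeks, 30 (0.205%) were higher and 78 (0.534%) lower with lactation, and 29 of the 30 and 68 of the 78 had the same sign at 1 week, with an unadjusted p under 0.05 in 22 and 47 (17.4% of all genes). The 1-week count depended on single libraries: it was 2 without 1wk SBI + Lac replicate 1 and 235 without 1wk SBI replicate 3. The genes called for a lactation effect over both times together (the average of the effects) were 44 higher (0.301%) and 289 lower (1.98%), and 332 of these 333 had the same sign at both times, which selection on the average nearly fixes. An unadjusted p of the difference under 0.05 was found for 4 of the 13 and 3 of the 24 genes called at 1 week, and for 11 of the 30 and 35 of the 78 called at 3 weeks, where 4.42% of all genes had one. These genes were selected for a large effect at 1 of the 2 times that enter the difference, so their shares are descriptions only.

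Without a test, 43 genes (0.295%) had groups that did not overlap in opposite directions at the 2 times, and 1258 (8.62%) had groups that did not overlap in the same direction. Called at both times were 13 genes, 12 of them in the same direction. These were Il15, Fmo2, Rbm3, Gpnmb, Nfil3, Frmpd1, Fkbp5, Jaml, Mmp12, Ppp1r1a, Glul and Hist1h4m, and the other was Sncg.

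A kept effect required a called average effect, an unadjusted p under 0.05 in the same direction at each time, and a 95% interval of the difference within −1 to 1. It was met by 15 genes (0.103%), 8 higher and 7 lower with lactation, out of 333 genes called on average. The interval of the difference reached a median of 1.52 to either side for the 333 genes, of which 27 had an unadjusted p of the difference under 0.05. A call as kept bounds the change to less than 1 log2 unit and does not show equal effects.

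The kept genes that were higher with lactation include targets of glucocorticoid hormone. Fkbp5, a co-chaperone that damps the glucocorticoid receptor, stood at 6.41, 6.12 and 7.10 CPM in 1wk SBI and 17.8, 22.5 and 11.9 CPM in 1wk SBI + Lac. At 3 weeks it stood at 17.8, 13.4 and 14.3 CPM and, with lactation, at 46.2, 31.4 and 38.1 CPM. The groups did not overlap at either time, and the effects of 1.41 ± 0.20 and 1.36 ± 0.20 differed by −0.05 (95% interval −0.67 to 0.56). Glul, glutamine synthetase, rose by 1.14 ± 0.19 and 1.24 ± 0.19, from 411, 501 and 643 to 1210, 1290 and 941 CPM at 1 week and from 808, 844 and 616 to 2060, 1790 and 1500 CPM at 3 weeks (interval of the difference −0.49 to 0.67). Fmo2, a flavin-containing monooxygenase, stood at 3.70, 5.6 and 7.36 CPM without and 14.6, 15.1 and 11.9 CPM with lactation at 1 week. It stood at 11.3, 10.3 and 8.35 against 23.5, 20.2 and 20.1 CPM at 3 weeks, effects of 1.32 ± 0.20 and 1.12 ± 0.20. All 3 genes were called at both times.

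Nfil3, a repressor that binds the D-box of clock-controlled genes, stood at 11.3, 10.9 and 12.6 CPM in 1wk SBI and 24.3, 25.2 and 21.3 CPM in 1wk SBI + Lac, and at 12.0, 11.6 and 8.37 CPM in 3wk SBI and 32.0, 25.8 and 25.3 CPM in 3wk SBI + Lac. The effect was 1.02 ± 0.14 and then 1.42 ± 0.15, with an interval of the difference from −0.04 to 0.83. Il15, a cytokine that muscle secretes, stood at 4.90, 7.56 and 10.5 against 16.7, 18.9 and 13.5 CPM at 1 week and at 14.1, 14.3 and 11.8 against 26.6, 29.9 and 24.1 CPM at 3 weeks, effects of 1.10 ± 0.21 and 1.02 ± 0.22. Sema7a, a membrane-anchored semaphorin, had effects of 0.99 ± 0.16 and 1.33 ± 0.16, and Kcnj12, an inward rectifier potassium channel, 0.93 ± 0.21 and 1.27 ± 0.21. Ppp1r1a, an inhibitor of protein phosphatase 1 named after its values were seen, had 1.01 ± 0.18 and 1.15 ± 0.18.

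The kept genes that were lower with lactation were led by Gpnmb and Rbm3. Gpnmb, a glycoprotein of macrophages that clear debris, stood at 135, 215 and 133 CPM in 1wk SBI and 45.4, 53.6 and 57.9 CPM in 1wk SBI + Lac, then at 46.8, 60.2 and 61.7 CPM and 23.7, 26.3 and 16 CPM in the 3-week groups. Rbm3, an RNA-binding protein induced by cold, stood at 59.1, 68.8 and 52.2 against 20.3, 22.7 and 25.3 CPM at 1 week and at 80.5, 59.6 and 65.4 against 28.6, 34.8 and 34.0 CPM at 3 weeks. For both, all lactating libraries were below all others at each time, with effects of −1.62 and −1.33 for Gpnmb and of −1.40 and −1.08 for Rbm3. Cd68, a lysosomal protein of macrophages, stood at 33.5, 26.8 and 27 against 16.1, 11.7 and 17.0 CPM at 1 week and at 17.2, 18.3 and 27.7 against 8.69, 12.0 and 9.45 CPM at 3 weeks. C3ar1, the receptor of the complement fragment C3a, had effects of −1.11 and −1.17, Megf10, a receptor of satellite cells, of −1.14 and −1.19, and Rgs18, a regulator of G protein signaling, of −1.11 and −1.02. Prrg4, named after its values were seen, had −1.001 and −1.121.

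Fkbp5, Fmo2, Nfil3, Glul, Sema7a and Rbm3 met the kept criteria in each of the 12 fits that left out 1 library and in each of the 10 other fits. The others did so less often over the 12: Ppp1r1a met them in 11, Cd68 met them in 7 of the 12, C3ar1 in 6, Gpnmb, Kcnj12 and Prrg4 in 5, Megf10 in 4 and Rgs18 in 1. Il15 met them in 11 and did not without 1wk SBI replicate 1, where its average effect was 0.94.

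**Figure D3:**
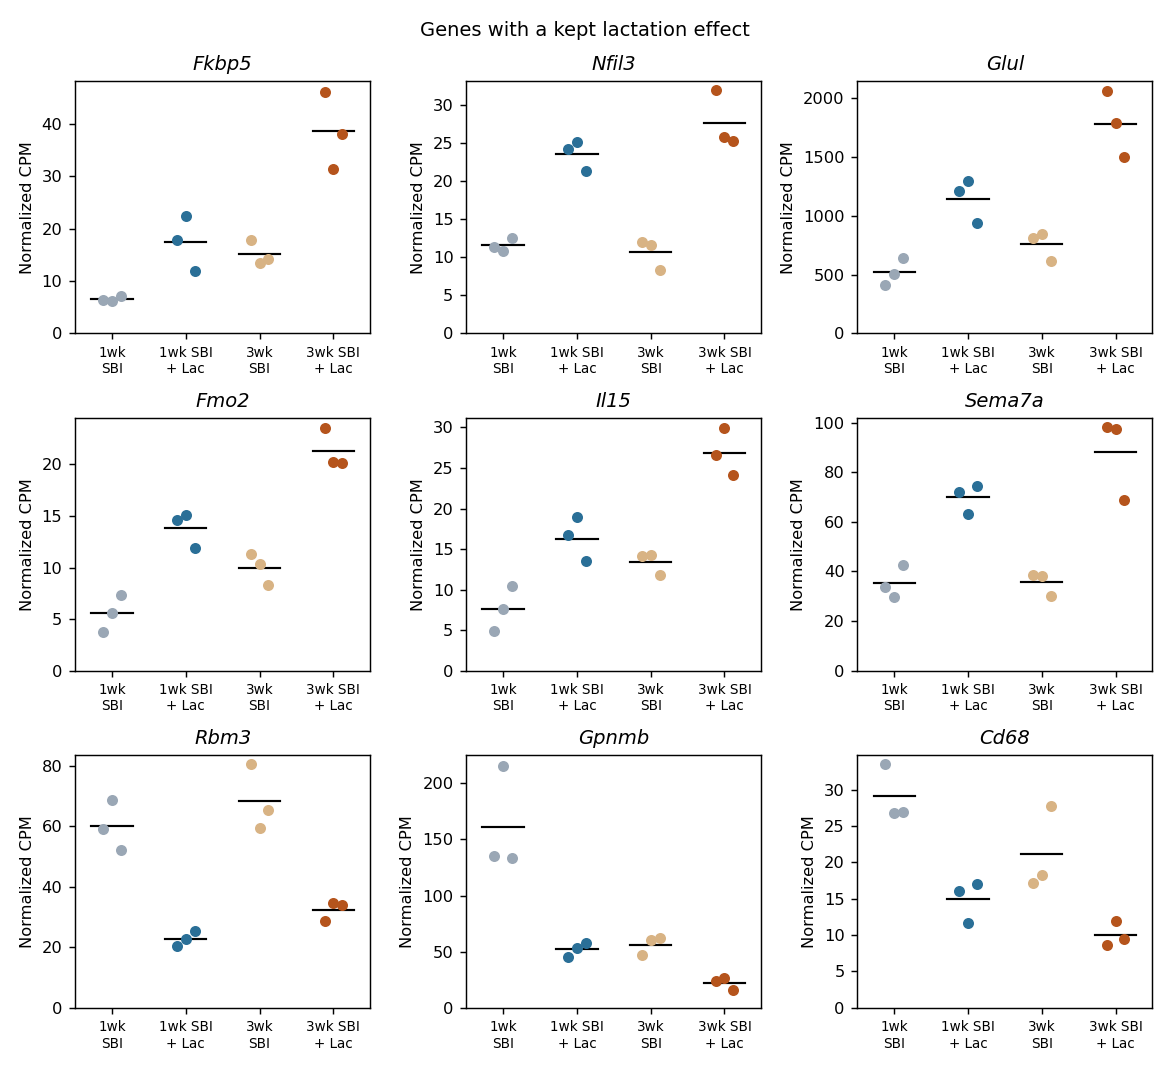
Normalized CPM in each library (points) and the mean of 3 pools (horizontal lines) for 9 of the 15 kept genes, on linear axes from 0. At both times the lactating libraries lie above the others for Fkbp5, Nfil3, Glul, Fmo2, Il15 and Sema7a and below them for Rbm3, Gpnmb and Cd68, with no overlap between the groups of a time point.

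RefSeq promoters (GRCr8) matched 12 of the 15 kept genes by symbol. A match to AGAACA on either strand lay within the 250 upstream bases of 4 of the 12 (Fmo2, Rbm3, Prrg4 and Il15), and the Fkbp5 promoter held none. AGGTCA matched 2 of the 12, CACGTG 1 and TTATGTAA 0. Over all 33469 rat promoters the shares are 17.5%, 14.1%, 5.59% and 0.828% for the motifs in the order given. AGAACA also matched 1 of 12 genes with the smallest p of the difference and 2 of 22 genes of the fatty acid list described below. Whether any of these small counts departs from the shares was not tested. The upstream bases of Fmo2 (chr13:77777535-77777784, minus strand), Rbm3 (chrX:17020655-17020904, plus strand) and Il15 (chr19:42544456-42544705, plus strand) are shown to place the letters, in capitals, that matched AGAACA or AGGTCA on either strand in genes whose effect was called at both times. A match describes letters and is not a binding site.
Fmo2: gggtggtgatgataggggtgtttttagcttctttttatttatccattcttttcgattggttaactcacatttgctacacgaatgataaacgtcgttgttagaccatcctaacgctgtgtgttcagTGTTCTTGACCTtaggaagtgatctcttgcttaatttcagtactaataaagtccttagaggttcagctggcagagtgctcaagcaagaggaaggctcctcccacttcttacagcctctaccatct
Rbm3: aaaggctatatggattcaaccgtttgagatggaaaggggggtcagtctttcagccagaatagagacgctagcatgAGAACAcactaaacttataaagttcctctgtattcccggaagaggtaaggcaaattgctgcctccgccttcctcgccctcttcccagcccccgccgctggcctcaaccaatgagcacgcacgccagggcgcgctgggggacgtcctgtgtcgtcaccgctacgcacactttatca
Il15: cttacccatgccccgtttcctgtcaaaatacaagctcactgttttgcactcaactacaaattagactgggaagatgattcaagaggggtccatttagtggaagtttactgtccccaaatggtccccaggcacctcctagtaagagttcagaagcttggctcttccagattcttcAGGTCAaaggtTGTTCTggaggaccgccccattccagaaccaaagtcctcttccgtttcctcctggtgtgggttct

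The list of fatty acid use had a positive median lactation effect at 1 week and a negative one at 3 weeks, with 0 members called for the difference in edgeR (DESeq2 called Angptl4 and Cpt1a). Of 32 listed, 30 were tested. Their median effect was 0.23 at 1 week and −0.30 at 3 weeks, and the median difference was −0.51, against −0.02 over all genes tested. The difference was negative for 29 of the 30 (7686 of all 14599 genes), and effects had opposite signs for 21 (4125 of all genes). An unadjusted p of the difference under 0.05 was found for 12, all negative, where 4.42% of all genes had one. This list, like the other gene lists, was chosen with earlier results of these data known, so its counts are descriptions only. In the list score, 1wk SBI libraries stood at −0.61, −0.21 and 0.01 and 1wk SBI + Lac libraries at −0.04, 0.35 and −0.20, which overlap. The 3wk SBI libraries stood at 0.46, 0.42 and 0.15 and the 3wk SBI + Lac libraries at −0.12, −0.28 and 0.08, which do not.

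Pdk4, which shuts glucose carbon out of the mitochondrion when fat is burned, stood at 57.9, 102 and 194 CPM in 1wk SBI and 399, 469 and 185 CPM in 1wk SBI + Lac, then at 534, 417 and 445 CPM and 195, 148 and 360 CPM in the 3-week groups. Groups overlapped at 1 week and not at 3 weeks. Its effects were 1.58 ± 0.48 and −0.996 ± 0.48 (difference −2.57 ± 0.69, unadjusted p of 0.0043). Ucp2, a mitochondrial carrier, had effects of −0.60 and −1.07 (adjusted p = 0.0383 at 3 weeks) and a difference of −0.47. Besides Angptl4, Cpt1a and Pdk4, the members with an unadjusted p under 0.05 were Ucp3, Hadha, Ech1, Acadl, Acaa2, Decr1, Etfdh, Eci1 and Slc25a20, named after their values were seen. Apart from the uncoupling protein Ucp3 and the carnitine carrier Slc25a20, these encode enzymes of beta oxidation or of its electron transfer. Ucp3 went from 1.11 to −1.58, and the others from between −0.00 and 0.29 to between −0.77 and −0.21. The transcriptional regulators in the list were not among them: Ppara had effects of 0.55 and 0.43, Ppard 0.40 and 0.52 and Ppargc1a 0.52 and 0.34, the 3 chosen after their values were seen.

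The size of this difference depended on single libraries while its sign did not. Leaving out 1 library at a time moved the median difference between −0.69 and −0.34 and kept 28 to 30 members negative, but only 4 members had an unadjusted p under 0.05 without 1wk SBI + Lac replicate 2. RefSeq promoters matched 22 of the 30 members, and AGGTCA lay in 4 of these 22 against 14.1% of all promoters.

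**Figure D4:**
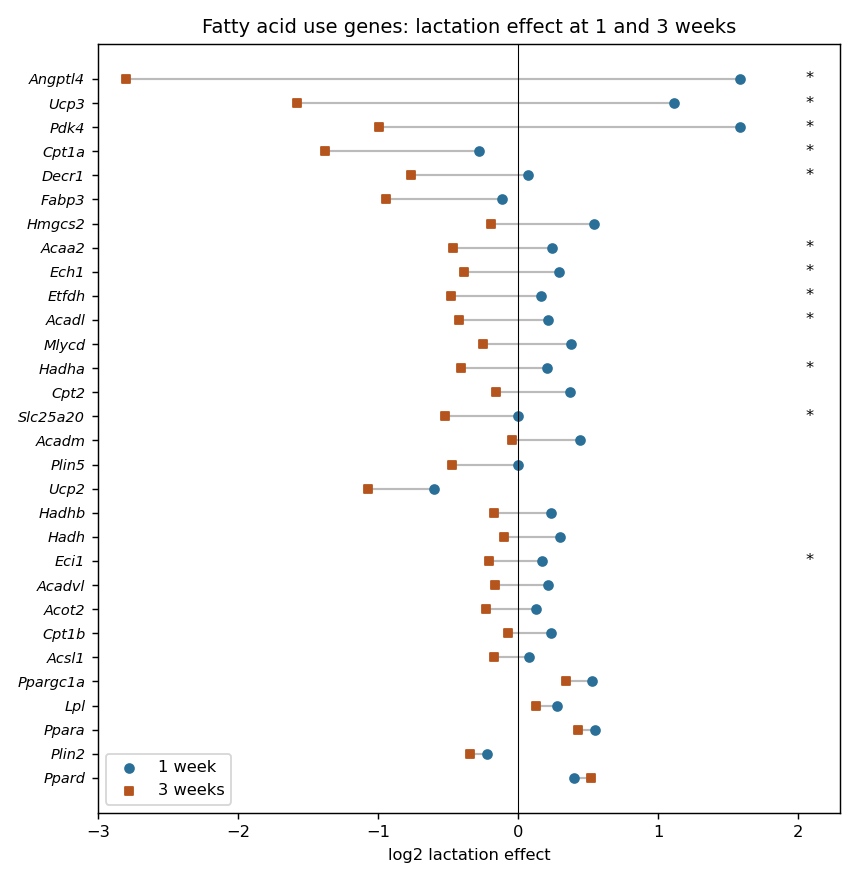
The log2 lactation effect at 1 week (circles) and 3 weeks (squares) for the 30 tested fatty acid genes, ordered by the difference, with an asterisk at an unadjusted p of the difference under 0.05 (12 genes). In 29 of the 30 the square lies to the left of the circle.

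Oxidative phosphorylation, glycolysis and fiber type genes had smaller negative median differences. Of 44 nuclear genes of oxidative phosphorylation, 44 had a negative difference, where 7686 of all 14599 genes did. Their medians were 0.21 at 1 week and −0.01 at 3 weeks. The median difference of −0.22 moved between −0.44 and −0.11 over the fits that left out 1 library, with 37 to 44 members negative. The list scores of lactating and non-lactating libraries overlapped at both times, and genes that move together are not separate evidence. An unadjusted p under 0.05 was found for 1 member, Cox7a1, and for 21 members without 1wk SBI replicate 3. Cox7a1, a cytochrome oxidase subunit usually abundant in muscle, stood at only 0.497 to 2.15 CPM, and whether its reads were shared with another gene model was not tested, so its value is uncertain. Cox6a2, a muscle subunit of cytochrome oxidase, had effects of 0.44 and −0.00. For 24 genes of glycolysis and glycogen the medians were 0.32 and 0.08 with 23 negative differences, and for 23 fiber type genes 0.49 and 0.26 with 20 negative, and none of these had an unadjusted p under 0.05. The 13 genes encoded in the mitochondrial genome had medians of 0.16 and 0.12, and their median difference of −0.04 was 0.13 without 3wk SBI replicate 1. Lipid and cholesterol synthesis (27 genes) had medians of −0.03 and 0.08, with 16 positive and 11 negative differences. Scd, which desaturates fatty acids, was called lower at 3 weeks and on average (829, 495 and 356 against 227, 221 and 257 CPM, then 136, 52.1 and 129 against 29.2, 19 and 25.4 CPM), without overlap at either time, with effects of −1.25 and −2.12.

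Interferon-stimulated genes, which respond to viral and inflammatory signals, had a lower median effect at 3 weeks than at 1 week, with 0 members called at either time. All 31 tested had a negative difference, where 7686 of all 14599 genes did. Their median effect was −0.14 at 1 week and −0.73 at 3 weeks. An unadjusted p under 0.05 was found for 18 at 3 weeks against 0 at 1 week (21.1% and 18.9% of all genes). For the difference itself 3 of the 31 did, beside 4.42% of all genes: Ifih1, a sensor of double-stranded RNA (0.15, then −0.46), Stat2, a signal transducer of the interferon receptor (0.10, then −0.40), and Rsad2, an antiviral enzyme (−0.16, then −1.94). The list score stood at 0.25, 0.33 and 0.30 in 1wk SBI and at 0.68, −0.41 and −0.26 in 1wk SBI + Lac, so 1 of the lactating libraries lay above all others and 2 below. At 3 weeks it stood at 0.55, −0.01 and 0.30 without and −0.49, −0.46 and −0.79 with lactation. Without the high library, 1wk SBI + Lac replicate 1, the median effect at 1 week was −0.57 and the median difference −0.14, with 23 of the members negative.

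Hormone and clock genes had differences of both signs in similar number. Of 28 tested glucocorticoid targets the median effect was 0.24 and 0.33, 16 differences were negative and 12 positive, and 3 genes were kept (Fkbp5, Fmo2 and Glul). Cebpd, a transcription factor induced by the hormone, had effects of 0.93 ± 0.19 and 1.04 ± 0.20 and was called at 3 weeks. Klf15, a regulator of amino acid use, had 0.77 and −0.05 (unadjusted p of the difference 0.011), Mt1, a metallothionein, −0.03 and −1.21, and Pik3r1, a regulatory subunit of PI3 kinase, 0.25 and 0.77. Of 22 clock genes, 10 differences were positive and 12 negative, with medians of 0.22 and 0.10. Npas2, a partner of the core clock, had effects of 0.24 and −0.97 at an unadjusted p of 0.026.

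The lists of repair and inflammation had negative medians at both times with all libraries, but the size of these medians depended on single libraries. For 40 cell cycle genes the median effect was −1.20 and −1.30, and 18 were called lower on average, as were 1.98% of all genes. Prc1, a protein of the dividing spindle, stood at 7.32, 3.85 and 4.08 against 1.41, 1.80 and 2.77 CPM at 1 week and at 1.61, 2.23 and 2.71 against 0.521, 0.488 and 0.550 CPM at 3 weeks. For 30 macrophage genes the medians were −0.58 and −0.55, for 27 T cell genes −1.12 and −1.16, for 13 MHC class II genes −0.64 and −0.57 and for 19 cytokines and chemokines −0.64 and −0.55. Spp1, osteopontin, had an effect of −3.01 at 1 week (28.3, 56.3 and 28.7 against 4.52, 3.53 and 5.90 CPM) and of −1.79 at 3 weeks (5.26, 10.7 and 3.76 against 1.95, 1.64 and 2.09 CPM), and was called at 1 week and on average. Foxp3, the lineage factor of regulatory T cells, had effects of 0.97 and 1.16, and the 13 genes of its list medians of −0.27 and −0.18. Without 3wk SBI replicate 3 the 3-week median was 0.04 for T cell genes, −0.04 for cytokines and chemokines, −0.14 for MHC class II, −0.19 for macrophage and −0.30 for cell cycle genes. The median difference then went from 0.08 to 1.15 for T cell genes, from −0.08 to 0.19 for cytokines and chemokines, from 0.06 to 0.49 for MHC class II, from 0.01 to 0.42 for macrophage and from −0.21 to 0.39 for cell cycle genes. Without 3wk SBI + Lac replicate 2 the 3-week medians were −2, −1.23, −0.789, −0.82 and −1.43 in the same order of lists. Without 1wk SBI replicate 2 the 1-week medians were −0.593, −0.258, −0.585, −0.507 and −1.25 in that order.

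Matrix genes (48) had medians of −0.56 and −0.85 and 36 negative differences, 3 of them at an unadjusted p under 0.05 together with 1 positive one. Col15a1, a collagen of the basement membrane zone, stood at 134, 129 and 138 against 96.6, 102 and 110 CPM at 1 week and at 128, 153 and 198 against 76.9, 73.9 and 78.5 CPM at 3 weeks, without overlap. Its effect was −0.38 ± 0.13 and −1.07 ± 0.13. Thbs4 (0.42, then −0.46) and Eln, elastin (−0.18, then −0.93), were the other negative ones. Without 3wk SBI replicate 3 the median difference of this list was 0.20 in place of −0.25.

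Genes of regenerating fibers had more positive than negative differences. For 24 genes of the embryonic sarcomere and of fusion the medians were −0.75 and −0.37, with 16 positive differences. Actc1, cardiac actin, which new fibers express, stood at 2140, 949 and 1060 against 412, 538 and 614 CPM at 1 week and at 195, 94.6 and 174 against 100, 106 and 152 CPM at 3 weeks. The groups did not overlap at 1 week and did at 3 weeks, with effects of −1.41 ± 0.33 and −0.38 ± 0.33 (unadjusted p of the difference 0.049). Cdh15, a cadherin of myoblasts, had −0.36 and 0.11 (0.045), and Nes, nestin, −1.28 and −0.36 (0.064). Without 1wk SBI replicate 1 the median difference of this list was −0.00 in place of 0.31. For 25 satellite cell and myogenic genes the medians were −0.17 and −0.31, and Pax7, which marks satellite cells, had −1.03 and −1.21.

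Lists of protein synthesis and breakdown had median differences near that of all genes. Of 48 ribosomal protein genes, 47 had a positive difference, with medians of 0.08 and 0.21 and a median difference of 0.09. Of 31 proteasome genes 25 had a positive difference, with medians of 0.01 and 0.10, where 6913 of all 14599 genes had one. Without 3wk SBI replicate 3 the median differences were 0.03 and −0.03, with 14 and 23 members negative in place of 1 and 6. Among 25 atrophy genes the medians were 0.21 and 0.21, and among 26 heat and cold shock genes 0.23 and 0.16. The 9 histone genes tested, whose near-identical copies share reads, were not near the value of all genes. Their medians were 0.45 and 1.04 and their median difference was 0.65, with 7 positive and 2 negative. It moved between 0.43 and 0.77 when 1 library was left out.

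Genes of other tissues were followed for what a dissected muscle can carry. The 9 red blood cell genes tested had medians of 0.81 and 0.39. Hba-a1, a globin, stood at 148, 126 and 221 against 437, 403 and 308 CPM at 1 week, without overlap, and at 50.6, 83.6 and 102 against 72.4, 131 and 108 CPM at 3 weeks, with overlap. The summed level of this list was 419 to 652 CPM and 811 to 1060 CPM in the 1-week groups and 352 to 409 CPM and 405 to 507 CPM in the 3-week groups. With red blood cell, milk and mitochondrially encoded genes left out of the library sizes, 1 gene was again called for the difference and the Sncg difference was −2.50. Smooth muscle genes (14) had medians of 0.16 and 0.17, endothelial genes (21) −0.06 and −0.09, and Schwann cell and nerve genes (19) −0.06 and 0.19. Milk genes were counted in lactating libraries: Csn2, beta-casein, had no count in the 6 non-lactating libraries, where a count of 0 allows up to 0.322 CPM (3 counts in the shallowest of them, counting error only). It stood at 0.262, 1.29 and 1.07 CPM in 1wk SBI + Lac and at 14.1, 4.05 and 0 CPM in 3wk SBI + Lac, and no fold is given.

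**Figure D5:**
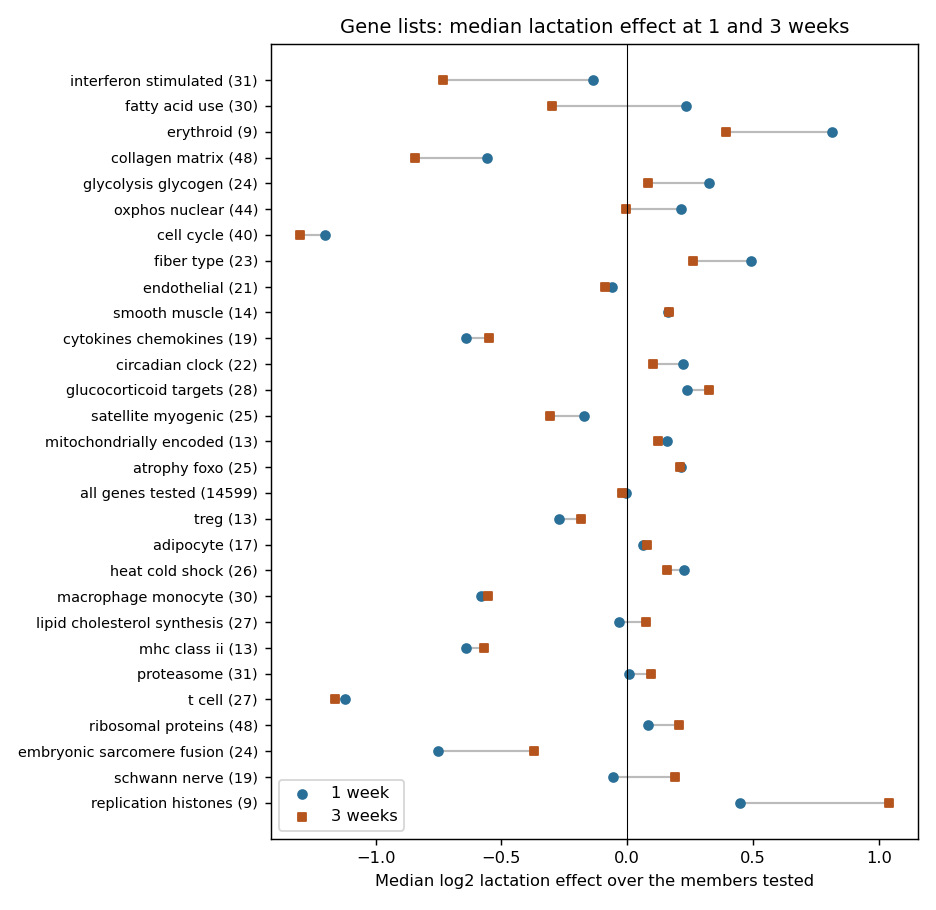
Median log2 lactation effect over the tested members of each gene list (number in brackets) at 1 week (circles) and 3 weeks (squares), ordered by the median of the members' differences. Milk genes and the genes the study named are not drawn. Interferon and fatty acid genes lie at the top with the most negative median differences (−0.51 and −0.505), and the medians of all genes lie near 0.

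Genes that the study named from these same libraries are not independent evidence of a direction. Of 21 named for 1 week, the medians were −1.29 and −1.04 and 0 had an unadjusted p of the difference under 0.05. Of 15 tested that were named for 3 weeks, the medians were −0.74 and −1.15 and again 0 did. The smallest p among them belonged to Alox15, a lipoxygenase (1.54, then −0.49), at 0.070, and Vcam1, an adhesion molecule, had −1.11 and −0.57 with an interval of the difference from −0.31 to 1.39.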

How the data were processed

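Poly(A) RNA of rat pubocaudalis was sequenced in 12 libraries (stranded kit), 3 per group, each a pool of 2 rats. The authors deposited 1 table of raw counts per gene for 30206 genes. The 1-week columns deposited hold whole counts. The 3-week columns deposited by the authors hold decimals and were taken as estimated counts and rounded for the tests. Salmon is named in the submitters' processing notes, with no version, and the genome build and annotation are not given in the sources used here. Coordinates and sequences are from RefSeq (GRCr8), matched by symbol. Columns were matched to samples by the labels, and 0 columns were left unused.

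Counts were fitted in edgeR 4.0.16 (R 4.3.3) with TMM normalization, filterByExpr (14599 genes kept), a robust quasi-likelihood fit with 1 coefficient per group, and Benjamini-Hochberg adjustment over all genes tested. A gene was called where the adjusted p was under 0.05 and the log2 value beyond 1 in either direction. Standard errors and 95% intervals are Wald values from the fitted means, dispersions and moderated quasi-likelihood dispersions. Normalized CPM use TMM-scaled library sizes. The study used DESeq2, run here as an alternative (version 1.42.0). The members and the 31 gene lists were chosen with earlier results of these data known. Genes named are up to 6 per class and direction, the 15 with the smallest p of the difference (with a symbol and at least 1 CPM in a group), and of each list its called members or up to 3 with the smallest p. Of genes the study names, those with the smallest p (up to 6) or the narrowest interval (up to 4) could be named. Others are marked as named after their values were seen. The alternatives tried were DESeq2, voom with quality weights in limma 3.58.1, normalization by RLE or by the upper quartile, other low-count filters and call limits, thinning of all libraries to 1 depth, the replicate number as a block, omission of single libraries, and library sizes computed after dropping genes of red blood cells, of milk and of the mitochondrial genome. The fit was tested on simulated data.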

Additional observations from a re-analysis of the deposited data

Results flagged for a closer look

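Sncg is the 1 gene whose lactation effects at 1 and 3 weeks differed by the test of the difference itself. The effect at 3 weeks minus that at 1 week was −2.51 on the log2 scale (edgeR's quasi-likelihood test, adjusted p = 0.000618), with all 3 lactating libraries above the others at 1 week and all 3 below them at 3 weeks. No outlier test was run on single libraries, since groups hold 3 libraries, but each library was left out in turn.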

How the results depend on the processing

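The sign of the difference or of the average effect of the single genes followed turned in 0 of the alternatives, and the call for Sncg held in every alternative that gave a value for it. The number of genes called for the difference (1) was 11 by DESeq2, 3 by voom, 3 with at least 1 count in each group, 3 at an adjusted p under 0.10, 2 without a low-count filter, 2 under thinning, and 1 to 5 when 1 library was left out, the 5 without 1wk SBI replicate 3. The replicate number as a block gave 2. Same-numbered libraries of the compared groups did not deviate together (correlations of −0.233 to −0.0503, with 0 of 12 libraries closest to their own number). The labels do not say that a number is shared between groups. With 3 libraries per group this check cannot exclude a shared handling of same-numbered pools. The block gave 8 genes called at 1 week and 64 at 3 weeks. Reversed genes (1) numbered 2 by DESeq2, without a filter and with at least 1 count in each group, and 1 to 4 with 1 library left out. Lost genes (0) numbered 4 by DESeq2, 1 by voom, under the block, under thinning and with at least 1 count in each group, and 0 to 1 with 1 library left out. Gained genes (0) numbered 5 by DESeq2 and 1 by voom. Genes called at 1 week (37) numbered 193 by DESeq2, 281 by voom, 110 with only the 1-week libraries, 22 with at least 10 counts in every library, 83 at any fold, 151 at an adjusted p under 0.10, and 2 to 235 with 1 library left out. Genes called at 3 weeks (108) numbered 255 by DESeq2, 371 at any fold, 232 at an adjusted p under 0.10, and 22 to 157 with 1 library left out, the 22 without 3wk SBI + Lac replicate 1. Average calls (333) numbered 2233 at any fold, 99 with at least 10 counts in every library, and 136 (without 3wk SBI replicate 3) to 419 with 1 library left out. Kept genes (15) numbered 991 at any fold and 11 to 29 with 1 library left out, the 29 without 1wk SBI replicate 3. The cause of these shifts was not tested. Depth of as little as 10082734 counts limits genes near 1 CPM to about 10 counts in the shallowest library.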
